A study of Mus musculus with 2 samples.

Results

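Genes of cholesterol synthesis and sterol control were followed in single cells from the dorsal skin of wild-type (WT) and Chrna5-/- mice. The set holds 29 listed genes of the 31053 in both deposited matrices, chosen by name with earlier results of these data known. They are 19 synthesis enzymes, 6 genes grouped as SREBP control, 3 genes of cholesterol efflux and its receptor, and the oxysterol enzyme Ch25h. The SREBP control group holds the SREBP transcription factor genes Srebf1 and Srebf2, their regulators Scap, Insig1 and Insig2, and the sterol carrier Stard4. There was 1 library per genotype. Both came from vaseline-treated skin, the control arm of an imiquimod cream protocol, taken on day 7 from female mice aged 6 to 8 weeks per the labels. The strain is given as C57BL/6, with C57BL/6N under breeding and C57BL/6J under extraction. The extraction protocol speaks of skin after imiquimod, whereas the sample labels, title and design name vaseline. The knockout line was backcrossed to C57BL/6N per the labels, and neither the deleted part of Chrna5 nor the number of mice per library is given in the sources used here.

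Cells build cholesterol from acetyl-CoA through the mevalonate pathway, squalene and lanosterol. The transcription factor SREBP-2 switches these genes on when sterol in the endoplasmic reticulum is low. Scap carries SREBP to the Golgi for cutting, Insig proteins hold it back, and oxysterols such as 25-hydroxycholesterol, the product of Ch25h, strengthen that hold. Excess cholesterol leaves through Abca1 and Abcg1, which oxysterol-bound LXR receptors switch on. In epidermis cholesterol is also a component of the lipid barrier that differentiating keratinocytes lay down.

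Values are counts of unique molecular identifiers (UMIs) summed over the cells of a class and scaled to counts per 1000000 (CPM), and every ratio is knockout over WT. With 1 library per genotype no test across samples exists. Brackets give exact 95% intervals, which cover counting error only and leave out differences between mice or between libraries. A gene is called lower or higher when its ratio was at least 1.5-fold from 1 and the interval left out 1.

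The WT library held 10741 barcodes with a median of 12245 UMIs, and the knockout library 9696 with a median of 12223.5. After filtering, 10160 and 9308 cells were kept, and 34 barcodes occurred in both libraries. Removal of cells with markers of more than 1 lineage left 9796 and 9094 cells. The targeted gene, Chrna5, had 13 UMIs in all WT cells and 2 in all knockout cells, too few to check the labels firmly. Keratinocytes, gated on their marker genes, made up 8126 WT and 7620 knockout cells. The 10 keratinocyte markers summed to 35124 CPM in the WT and 35408 CPM in the knockout keratinocytes. Other markers moved between the libraries inside that gate. Cycling markers summed to 1046 CPM in WT and 1435 CPM in the knockout, and upper hair follicle markers to 1039 and 420. Dermal papilla markers summed to 851 and 648 CPM, with a median marker at 1.87 and 1.57 CPM. The 7 inflammatory markers, Ccl20 and Epgn among them, summed to 3199 and 3179 CPM, but their median marker was at 204 and 55.2 CPM. Melanocyte markers summed to 83.2 and 43.0 CPM, and Langerhans markers to 40.8 and 21.8 CPM. The part of these markers in the results below was not tested, beyond the values given by state and by cycling class.

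Promoter sequence is shown for 4 members to set beside their expression. In all keratinocytes, Hmgcs1 and Mvd, of the mevalonate pathway, had ratios below 1, and Mvk, a neighbour in that pathway, a ratio above 1. Ch25h had the lowest ratio of the set in all keratinocytes, though not in every state. The stretches are bases upstream of the start site from RefSeq windows on GRCm38.p6, 5′ to 3′ on the gene's strand, trimmed where the GENCODE gene begins. Capitals mark the letters TCACNCCAC, a fixed form of the sterol regulatory element, and the CCAAT box (CCAAT or ATTGG).
Hmgcs1 (chr13:119690101-119690350, plus strand): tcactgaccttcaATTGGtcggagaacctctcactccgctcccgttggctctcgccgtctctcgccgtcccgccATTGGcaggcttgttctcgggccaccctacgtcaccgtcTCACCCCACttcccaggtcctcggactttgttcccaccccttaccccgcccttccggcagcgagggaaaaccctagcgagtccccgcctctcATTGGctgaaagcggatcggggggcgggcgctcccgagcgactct
Mvd (chr8:122443423-122443672, minus strand): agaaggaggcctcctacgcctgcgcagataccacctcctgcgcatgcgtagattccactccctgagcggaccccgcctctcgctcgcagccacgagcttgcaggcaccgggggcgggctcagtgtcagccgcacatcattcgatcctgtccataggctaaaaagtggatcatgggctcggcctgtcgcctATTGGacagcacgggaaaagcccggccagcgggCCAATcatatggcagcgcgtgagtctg
Mvk (chr5:114444019-114444268, plus strand): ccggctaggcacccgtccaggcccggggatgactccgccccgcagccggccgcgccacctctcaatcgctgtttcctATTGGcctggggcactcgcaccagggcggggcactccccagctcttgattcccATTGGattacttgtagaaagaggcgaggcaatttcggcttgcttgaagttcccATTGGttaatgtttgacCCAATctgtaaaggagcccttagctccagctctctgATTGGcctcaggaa
Ch25h (chr19:34475165-34475398, minus strand): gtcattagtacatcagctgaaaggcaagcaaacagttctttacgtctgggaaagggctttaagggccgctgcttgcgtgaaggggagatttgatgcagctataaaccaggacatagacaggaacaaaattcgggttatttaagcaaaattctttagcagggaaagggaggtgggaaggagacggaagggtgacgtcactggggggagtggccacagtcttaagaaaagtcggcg
Of the 29 members, 24 had a window in the RefSeq table, among them 16 of the 19 synthesis genes. Fdps, Fdft1 and Sqle had none. The letters TCACNCCAC, searched on both strands, occurred in the 300-base window of 1 of the 16 synthesis genes, Hmgcs1, and in 1.47% of the 11097 measured genes that had a window. The CCAAT box, also searched on both strands, occurred in 15 of the 16 synthesis genes (93.8%) and in 42.5% of measured genes. Mvk and Mvd both held the CCAAT box, while the Ch25h stretch above held neither motif. Forms of the sterol regulatory element with other letters were not searched, so a window without TCACNCCAC may still hold one. A match is a description of the letters and says nothing about binding in these cells.

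In keratinocytes the synthesis genes were mostly lower in the knockout library. Summed over the 19 genes, the level was 1091 CPM in WT and 844 CPM in the knockout, a ratio of 0.773 (0.767 to 0.780). Of the 19 genes, 6 were called lower and 0 higher, where 7.49% of 14963 measured genes were called lower and 3.03% higher. At a looser rule, a ratio of at most 0.8 with an interval leaving out 1, 10 of 19 were lower, against 12.9% of all measured genes. The ratio was below 1 for 16 of 19, against 54.9% of all genes, and the median log2 ratio was -0.33 for the list and -0.03 for all genes. The count of 6 became 3 when the 4 keratinocyte states were weighted alike in both libraries, and 2 when Leiden clusters were. These weighted counts had no interval and rest on the 1.5-fold rule alone.

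**Figure D1:**
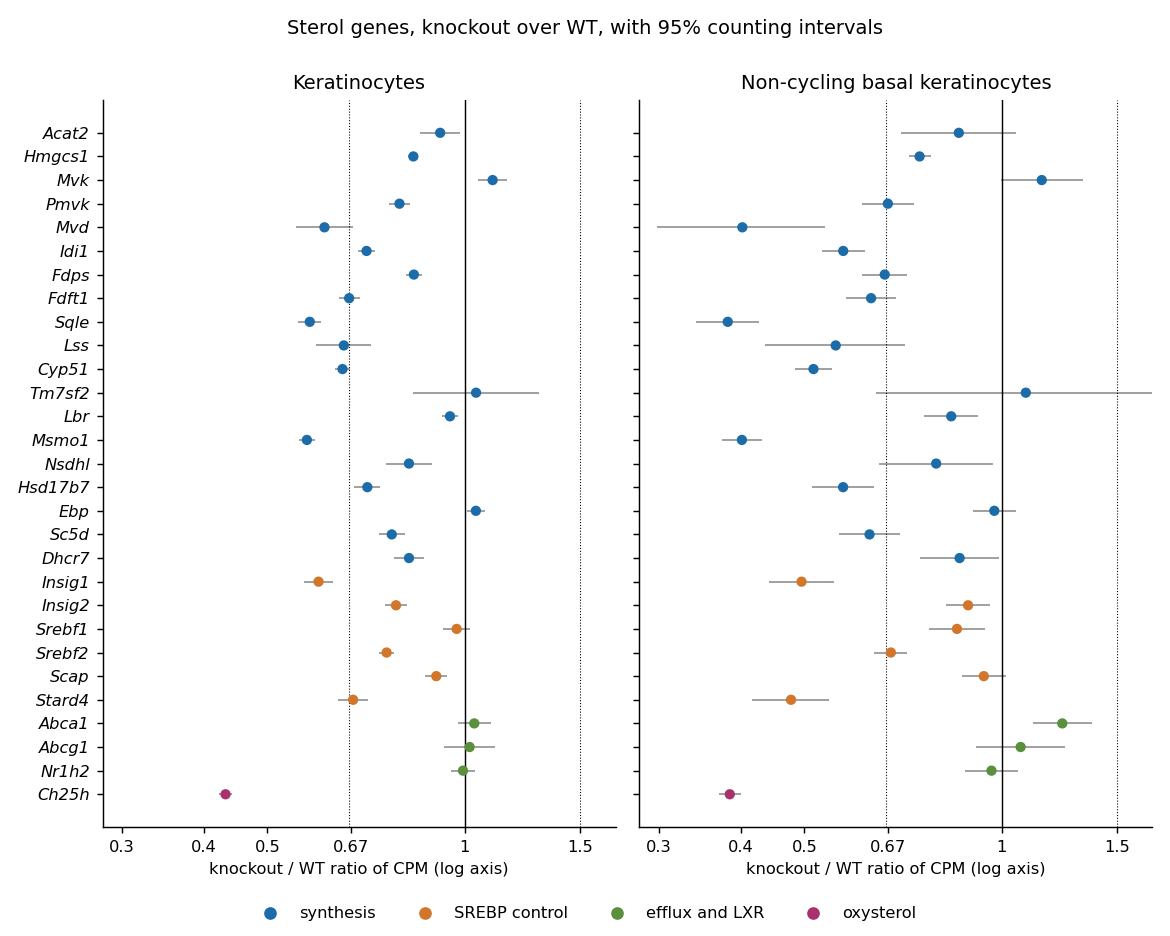
Knockout over WT ratio of CPM (log axis) for each of the 29 genes in all keratinocytes (left) and in non-cycling basal keratinocytes (right). Bars are exact 95% counting intervals, the solid line marks 1 and dotted lines mark 1.5-fold. Ch25h lies farthest left among all keratinocytes at 0.432. In non-cycling basal cells Sqle, Ch25h and Msmo1 lie at 0.382, 0.385 and 0.401.

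The early steps, up to mevalonate and its activation, were uneven. Acat2, which joins acetyl-CoA units, measured 13.6 CPM in WT and 12.4 CPM in the knockout, a ratio of 0.918. Hmgcs1, which makes HMG-CoA, went from 228 to 191 CPM (0.835, 0.821 to 0.850). The kinase Mvk stood on the other side of 1, at 24.8 and 27.3 CPM (1.10, 1.05 to 1.16). The next kinase, Pmvk, had 51.3 and 40.8 CPM (0.795). Mvd, the decarboxylase that ends this stage, was called lower, with 8.67 and 5.30 CPM (0.611, 0.553 to 0.675). Neighbouring steps of one pathway thus ranged from above 1 to well below it.

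The isoprenoid and squalene steps all had ratios below 1. The isomerase Idi1 measured 88.3 CPM in WT and 62.5 CPM in the knockout (0.708). Fdps, which makes farnesyl diphosphate, measured 89.5 and 74.9 CPM (0.837). Squalene synthase, Fdft1, was called lower, at 58.9 and 39.3 CPM (0.666, 0.642 to 0.692). Sqle, the squalene epoxidase and a rate-controlling step, was called lower at 52.7 and 30.6 CPM (0.580, 0.557 to 0.604). Lss, which closes the ring to lanosterol, was also called lower, at 8.75 and 5.72 CPM (0.654, 0.593 to 0.721).

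Among the enzymes that turn lanosterol into cholesterol, Cyp51, Msmo1 and Hsd17b7 stood lowest. Cyp51, the lanosterol demethylase, measured 112 CPM in WT and 73.1 CPM in the knockout (0.651, 0.634 to 0.669). Msmo1, which removes the next methyl groups, had the lowest ratio of the 19 at 0.574 (0.558 to 0.591), from 110 to 63.3 CPM. Its partners in that step, Nsdhl and Hsd17b7, had ratios of 0.822 and 0.710. The reductases Tm7sf2 and Lbr had ratios of 1.04 (0.835 to 1.30, on 170 and 165 UMIs) and 0.950. Ebp, the sterol isomerase, was at 1.04. The last desaturation and reduction enzymes, Sc5d and Dhcr7, were at 0.774 and 0.822. Thus 3 genes of the list, Mvk, Tm7sf2 and Ebp, had a ratio above 1, and the interval of Tm7sf2 held 1.

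The sum of the SREBP control genes was lower. Of the 6 genes 1 was called lower, where 7.49% of all measured genes were, and nothing is read from that count. Summed, they measured 296 CPM in WT and 232 CPM in the knockout, a ratio of 0.782 (0.770 to 0.794), and their median log2 ratio was -0.37. Insig1, itself a target of SREBP and its retention factor, was the one called lower, at 34.2 and 20.5 CPM (0.598, 0.569 to 0.629). Stard4, a sterol transfer protein, followed at 30.4 and 20.5 CPM (0.676, 0.642 to 0.711), just inside 1.5-fold. Srebf2, which encodes SREBP-2, measured 103 and 78.6 CPM (0.760, 0.740 to 0.781). Insig2 was at 0.786 and Scap at 0.905. Srebf1, the fatty acid branch's factor, measured 30.4 and 29.5 CPM (0.973, 0.928 to 1.02), so its interval held 1.

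The efflux genes and the LXR receptor were near equal. Abca1, the exporter that loads lipid-poor apolipoprotein, measured 18.4 CPM in WT and 19.02 CPM in the knockout (1.03, 0.975 to 1.10). Abcg1 measured 7.81 and 7.95 CPM (1.02, 0.929 to 1.11). Nr1h2, which encodes LXR-beta, measured 34.1 and 33.9 CPM (0.994, 0.952 to 1.04). All 3 intervals held 1.

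Ch25h, the cholesterol 25-hydroxylase, differed most of the 29 genes in all keratinocytes. It measured 187 CPM in WT keratinocytes (23401 UMIs) and 80.7 CPM in the knockout (9414 UMIs), a ratio of 0.432 (0.421 to 0.442). The level was highest in basal cells, at 301 CPM in WT and 119 CPM in the knockout (0.394, 0.384 to 0.405). Suprabasal cells had 65.0 and 23.4 CPM (0.360), outer root sheath cells 102 and 50.9 CPM (0.499), and upper hair follicle cells 39.7 and 23.6 CPM (0.595). The knockout value was thus below WT in all 4 states. Thinned to 2000 UMIs per cell, 28.2% of WT basal cells and 14.5% of knockout basal cells held a Ch25h UMI. In T and innate lymphoid cells the shares at that depth were 0.683% and 0.474%, and in dermal papilla and sheath cells 2.36% and 0.798%. Part of such low shares can be free RNA, whose amount was not measured. Subtracting an assumed 5% of free RNA left no Ch25h value in T and innate lymphoid cells. In the T and innate lymphoid gate Ch25h stood at 2.96 and 1.12 CPM, on 5 and 2 UMIs. Of the Leiden clusters given that name, cluster 12 had 3.49 and 8.87 CPM and cluster 17 had 57.1 and 22.8 CPM. The cluster values kept cells of mixed lineage, which the gate removed, so they are no measure of free RNA in the gated class. Before thinning, the basal shares were 50.6% and 34.5% at medians of 14098 and 13816 UMIs, and the T and innate lymphoid shares 0.882% and 0.362% at 2888 and 2988.5 UMIs.

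By keratinocyte state, the synthesis sum was lower in the knockout in each of the 4 states gated. Basal cells measured 946 and 699 CPM (0.739, 0.730 to 0.748), and suprabasal cells 1287 and 1091 CPM (0.847, 0.835 to 0.860). Outer root sheath cells measured 1043 and 876 CPM (0.840, 0.820 to 0.860), and upper hair follicle cells 1270 and 921 CPM (0.726, 0.698 to 0.755). In both libraries, then, the sum was higher in suprabasal than in basal cells. In basal cells 7 of 19 synthesis genes were called lower, against 5.07% of measured genes there, with Mvd at 0.465, Sqle at 0.474 and Msmo1 at 96.6 and 48.3 CPM. The other 4 called there were Cyp51 (0.580), Lss (0.595), Hsd17b7 (0.620) and Idi1 (0.631). In suprabasal cells 0 of 19 were called lower, against 5.29%, and 5 had a ratio of at most 0.8 with an interval leaving out 1, against 10.1%. Thinning gave 3 called lower in suprabasal cells, and the highest ratio there was that of Mvk, at 1.21. Outer root sheath cells had 2 called lower, Sqle and Msmo1, against 4.12%, and upper hair follicle cells 7, against 3.7%. Those 7 were Mvd (0.504), Msmo1 (0.554), Sqle (0.572), Hsd17b7 (0.610), Cyp51 (0.620), Idi1 (0.654) and Fdft1 (0.664). The upper hair follicle class held 582 WT and 265 knockout cells, and its own markers summed to 12278 and 9108 CPM. Basal markers there summed to 9045 and 10552 CPM, and fibroblast markers to 17.4 and 71.2 CPM. The part of these marker shifts in the values of that class was not tested. Tm7sf2 had the highest ratio in outer root sheath cells, on 23 and 20 UMIs, and the lowest in upper hair follicle cells, on 24 and 4 UMIs, with intervals that held 1. With Leiden clusters in place of gates, the outer root sheath sum turned to 1.09 with 0 genes called lower and Ch25h at 0.195, and upper hair follicle cells had 2 genes called lower, so these counts depend on how the cells are drawn.

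Insig1 was called lower in each of these states, at 0.552 in basal, 0.661 in suprabasal, 0.646 in outer root sheath and 0.553 in upper hair follicle cells. The call was lost in suprabasal cells with 5% free RNA subtracted, and in outer root sheath cells with Leiden clusters in place of gates, where 0 of the 6 control genes were called lower. Stard4 was called lower in basal cells (0.580) and had ratios of 0.804, 0.706 and 0.750 in the other three. Abca1 was at 1.14 in basal cells and 1.46 (1.11 to 1.92) in upper hair follicle cells, where 89 knockout UMIs stood against 147 in WT. The state gates left 18.2% of WT and 16.2% of knockout keratinocytes near a boundary between states.

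**Figure D2:**
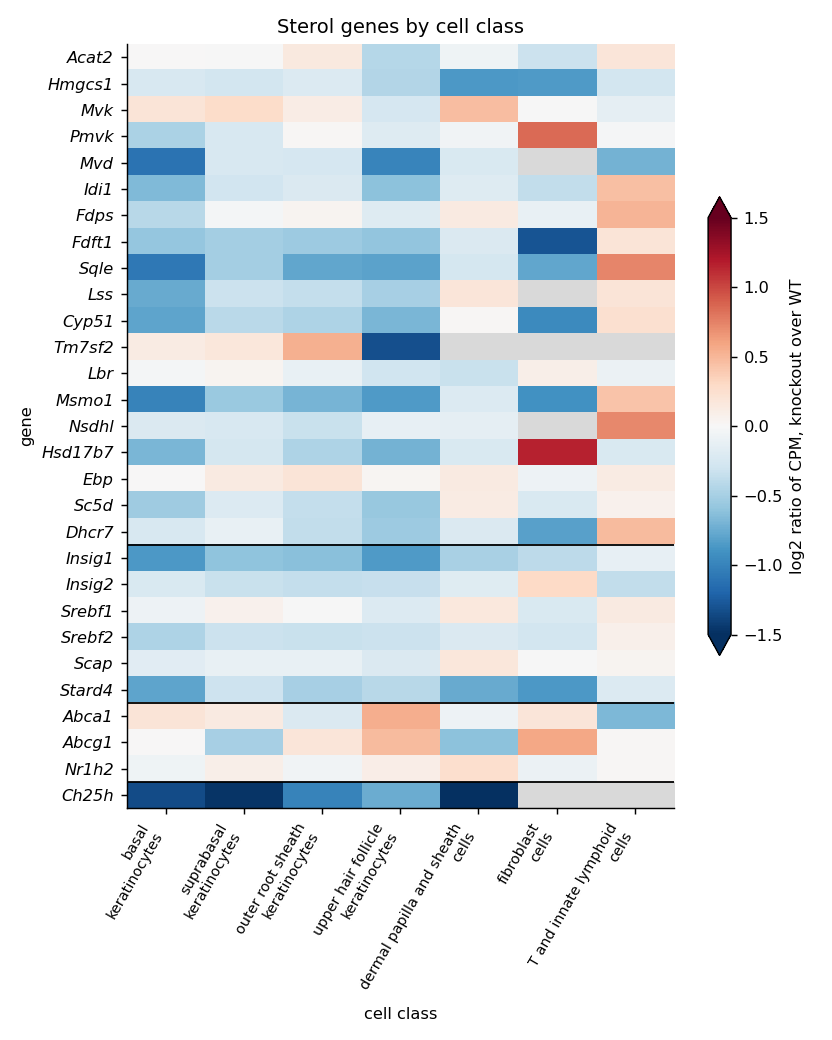
Log2 ratio of CPM, knockout over WT, for each gene (rows, grouped as synthesis, SREBP control, efflux and LXR, and oxysterol) in 7 cell classes (columns); gray marks genes with under 20 UMIs over both libraries. Blue (lower in the knockout) fills most of the synthesis rows in basal and upper hair follicle cells, and the T and innate lymphoid column is mixed.

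The difference was wider in basal cells gated as non-cycling. Cycling cells held at least 4 of 8 cycling markers and non-cycling cells at most 1, counted without thinning. Cells in between were in neither class. Median UMIs were 20462.5 in WT and 20669 in the knockout for cycling basal cells, and 12219 and 11867 for non-cycling ones. Shallow cycling cells can thus fall in the non-cycling class. In non-cycling basal cells the synthesis sum was 840 CPM in WT and 544 CPM in the knockout (0.647, 0.634 to 0.660), and in cycling basal cells 1067 and 836 CPM (0.784, 0.771 to 0.797). These intervals do not overlap, but they cover counting error only, and the difference between the classes was not tested. Non-cycling basal cells had 10 of 19 genes called lower, against 5.88% of measured genes, and cycling basal cells 8, against 4.43%. Sqle was at 0.382, Msmo1 at 0.401, Mvd at 0.402 and Cyp51 at 0.516 in the non-cycling class, and the other 6 called were Lss, Hsd17b7, Idi1, Sc5d, Fdft1 and Fdps, from 0.558 to 0.663. In the cycling class the 8 were Mvd, Sqle, Lss, Msmo1, Cyp51, Idi1, Hsd17b7 and Fdft1, from 0.468 to 0.665, beside Insig1 at 0.571 and Stard4 at 0.617, and Mvk was highest at 1.15. In non-cycling cells Insig1 was at 0.495, Stard4 at 0.477 and Srebf2 at 0.678. Ch25h was near equally low in both classes, at 0.385 and 0.391. Abca1 went the other way in non-cycling cells, at 1.24 (1.12 to 1.37).

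**Figure D3:**
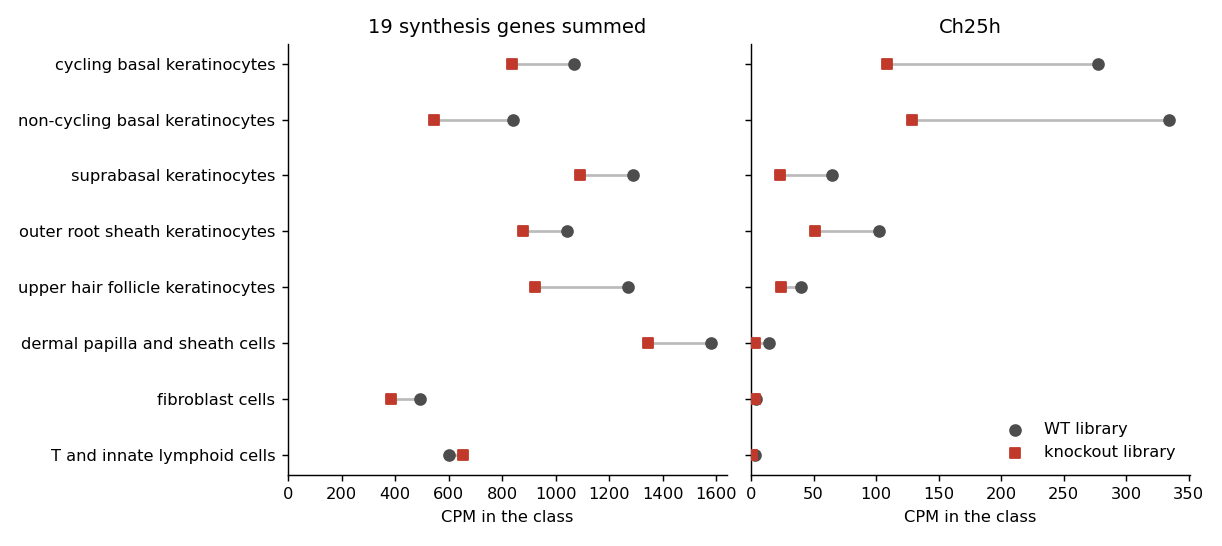
CPM of the 19 synthesis genes summed (left) and of Ch25h (right) in each class, WT library as dark circles and knockout library as red squares, joined by a line. The synthesis sum is lower in the knockout in each class shown but T and innate lymphoid cells (602 and 655 CPM), and Ch25h is high in basal cells in both libraries.

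Per cell, the distribution of synthesis counts lay lower in the knockout library. With each basal cell thinned to 5000 UMIs, the mean was 4.64 synthesis UMIs in WT (SD 3.53 over 3750 cells) and 3.30 in the knockout (SD 2.68 over 3991 cells). The medians were 4 and 3. Cells with 2 or fewer such UMIs made up 30.3% of WT and 45.5% of knockout basal cells, and cells with 10 or more 8.85% and 2.93%. Thus both the low and the high end of the distribution were displaced. These pooled counts cannot separate a lower level in all cells from a change in the mix of basal cells. That mix differed between the libraries, as the clusters below show, and its part was not tested.

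In basal cells of each library the synthesis mean was higher in cells with a Ch25h UMI, at 5.16 against 4.27 without one in WT and 3.62 against 3.19 in the knockout. The order was not even, since the knockout mean was 3.82 at 2 to 3 Ch25h UMIs and 3.61 at 4 or more. Suprabasal cells went the other way, with 5.91 against 6.25 in WT and 4.86 against 5.10 in the knockout. In non-cycling basal cells without a Ch25h UMI after thinning, the synthesis mean was 3.89 in WT and 2.51 in the knockout. In those with 4 or more Ch25h UMIs it was 5.10 and 2.98. In cycling basal cells the corresponding means were 4.93 and 4.13 without Ch25h, and 7.08 and 5.26 with 4 or more, the last on 47 knockout cells. The knockout mean was below WT in each of the 4 Ch25h bins of both classes. The bins are of counts thinned to 5000 UMIs, so like bins need not hold like Ch25h levels. Among WT basal cells 41.4% held a Ch25h UMI at that depth and 50.6% before thinning. The knockout shares were 24.3% and 34.5%. The part of Ch25h in the synthesis difference was not tested. These bins share each cell's depth and library and are given as a description. In non-cycling WT cells the growth factor gene Epgn stood at 806 CPM without Ch25h and 1595 CPM with 4 or more, and the chemokine gene Ccl20 at 87.1 and 640 CPM. In non-cycling knockout cells Epgn stood at 341 and 706 CPM, and Ccl20 at 26.9 and 130.2 CPM, so both were higher in the Ch25h-rich cells of either library.

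**Figure D4:**
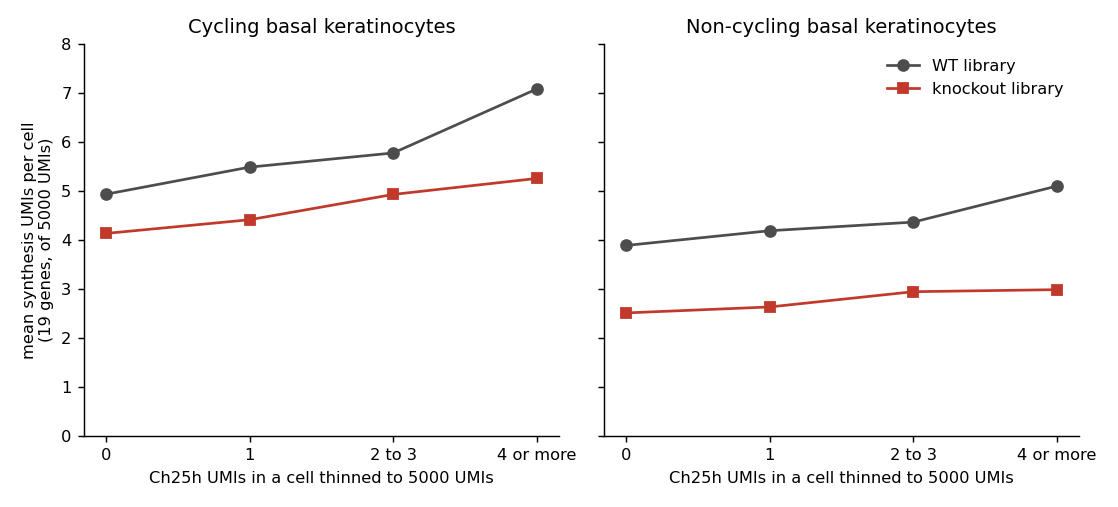
Mean synthesis UMIs per cell (19 genes, of 5000 UMIs) against the Ch25h UMIs of the same thinned cell, in cycling (left) and non-cycling (right) basal keratinocytes. The knockout line (red squares) lies under the WT line (dark circles) in every bin, from 3.89 and 2.51 at 0 Ch25h UMIs in non-cycling cells.

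Clusters drawn without any of the 29 genes gave a second view. The cell numbers, levels and ratios given per cluster include cells of mixed lineage. Of the 23 Leiden clusters, 11 keratinocyte clusters had at least 100 cells in both libraries. The synthesis ratio was below 1 in 10 of the 11, from 0.635 to 0.878, and was 1.07 (1.04 to 1.11) in cluster 3, an outer root sheath cluster. The Ch25h ratio was below 1 in 11 of 11, from 0.198 to 0.971, but in clusters 9 and 14 its interval held 1. The basal clusters were unevenly filled. Cluster 8, with the highest Ch25h level (515 and 285 CPM), held 1480 WT and 830 knockout cells. Cluster 9, with 47.9 and 46.5 Ch25h CPM, held 496 and 1556. Their synthesis sums were 883 and 561 CPM in cluster 8, and 754 and 538 CPM in cluster 9. With every basal cluster weighted alike, the basal Ch25h ratio was 0.496.

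**Figure D5:**
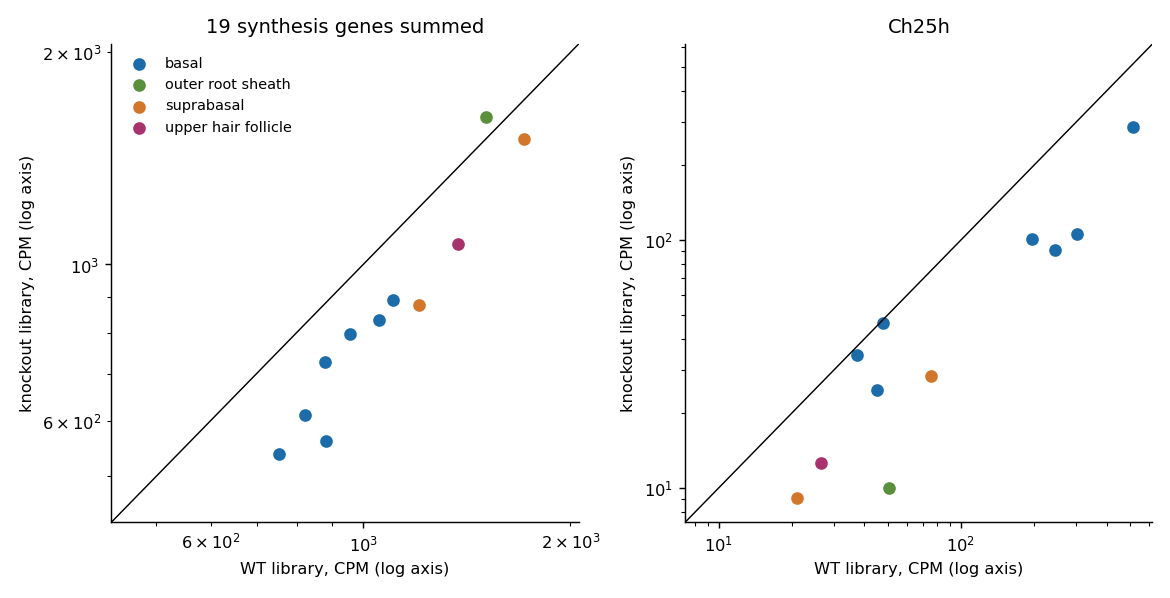
WT CPM (horizontal, log axis) against knockout CPM (vertical, log axis) for the 11 keratinocyte clusters, coloured by state, for the 19 synthesis genes summed (left) and Ch25h (right); the line marks equality. Points lie under the line but for 1 outer root sheath cluster on the left, and 2 basal clusters on the right lie close to it at low Ch25h.

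Outside keratinocytes the picture was less even, and other measures moved with it. The class's own markers summed to 9891 CPM in WT and 7398 CPM in the knockout for dermal papilla and sheath cells. Their median marker was near equal, at 732 and 729 CPM, and the median mitochondrial shares were 2.59% and 1.69%. For fibroblasts the own markers summed to 36850 and 26842 CPM, with a median marker at 2516 and 2007 CPM. Pericyte markers there summed to 388 and 165 CPM, with a median marker at 13.2 and 7.83 CPM. T cell markers summed to 469 and 256 CPM, with a median marker at 3.57 and 2.14 CPM. The mitochondrial shares of fibroblasts were 2.36% and 1.02%. The part of these measures in the following values was not tested. Dermal papilla and sheath cells (501 WT, 431 knockout) had a synthesis sum of 1581 and 1344 CPM (0.850, 0.813 to 0.889), with 1 of 18 measured genes called lower, against 4.02%. That gene was Hmgcs1, at 365 and 200.03 CPM (0.549, 0.492 to 0.611), so it alone made up much of the difference in the sum. Of the 18 genes, 12 had a ratio below 1, against 44.9% of genes, and 6 a ratio above 1. The whole interval lay below 1 for 2 of them, against 7.95% of genes. Stard4, Abcg1 and Ch25h were also called lower there, at 0.592, 0.655 and 0.209, the last on 48 and 7 UMIs and at 0.604 with Leiden clusters. Part of those few Ch25h UMIs can be free RNA, whose amount was not measured. The highest ratio in that class was that of Mvk, at 1.38. Fibroblasts (259 and 276 cells) had a sum of 493 and 385 CPM (0.781, 0.697 to 0.875), with 4 of 15 measured genes called lower against 5.29%: Hmgcs1 (0.556), Fdft1 (0.408), Cyp51 (0.514) and Msmo1 (0.533). Hsd17b7 was called higher, at 2.23, on 13 and 29 UMIs, where 5.86% of genes were. The count of 4 lay between 1 and 8 under the alternatives, among them a mean over cells called on the fold alone.

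T and innate lymphoid cells (567 and 552 cells) stood apart in direction, with 602 and 655 CPM (1.09, 0.999 to 1.18). None of the 18 measured synthesis genes was called lower or higher, against 4.89% and 3.93% of genes, and counts were low, with 17 and 30 UMIs for Sqle, the highest ratio at 1.67, and 17 and 11 for Mvd, the lowest at 0.611. Abca1 was called lower there, at 0.629 on 57 and 38 UMIs. The sum was 0.919 with Leiden clusters in place of gates and 0.964 as a mean over cells, so the direction in these cells was not settled. Melanocytes, Langerhans cells, hair matrix, granular cells and sebocytes had under 100 cells in at least 1 library and were not compared.

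Genes around the pathway were read from lists in the same keratinocyte pool. Of all measured genes in that pool 7.49% were called lower, 3.03% higher, and 54.9% had a ratio below 1, so nothing is read from a list with 0 or 1 called. Of 8 other measured genes of sterol and isoprenoid synthesis, 2 were called lower and 0 higher, with a median log2 ratio of -0.14, against -0.33 for the 19; Ggps1, at 0.942, was highest. Of 11 genes of the fatty acid branch of SREBP, 3 were called lower and 0 higher, and all 11 ratios were below 1, with a median log2 ratio of -0.44. Scd2, a fatty acid desaturase, was at 0.652 (40.9 and 26.7 CPM), and Fads1, a desaturase of long-chain fatty acids, at 0.578 on 271 and 146 UMIs. Fads2 had the lowest ratio, 0.516 (0.245 to 1.04), on 27 and 13 UMIs, and was not called. The synthase Fasn was at 0.713, Scd1 at 0.789, and Acaca, the first committed enzyme, was highest at 0.991. Of 9 genes that process or degrade SREBP and its partners, 0 were called, with ratios from 0.887 (the protease Mbtps2) to 1.02 (Erlin2). Of 8 measured LXR targets and partners, 0 were called, from Smpdl3a at 0.764 to Myo5a at 1.30. Of 7 measured genes that make, break or sense oxysterols, 1 was called lower: Gpr183, the receptor for a product made from 25-hydroxycholesterol, at 0.362 on 83 and 28 UMIs. In this pool Langerhans markers summed to 40.8 CPM in WT and 21.8 CPM in the knockout, and T and innate lymphoid markers to 92.0 and 75.4 CPM. The part of such immune RNA in the Gpr183 value was not tested. Sult2b1, a sterol sulfotransferase, was at 0.841. Of 11 measured genes of uptake and trafficking, 1 was called lower, Soat1, the cholesterol esterifying enzyme, at 0.516 on 133 and 64 UMIs, and Mylip, which marks lipoprotein receptors for degradation, was highest at 1.44 (1.37 to 1.51).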

How the data were processed

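Single-cell UMI counts from 2 libraries were analysed. The deposited matrices hold whole-number counts per gene and barcode with no normalization, per the file headers; they were made with Cell Ranger 3.0.2 on mm10 per the submitters' processing notes, while the file headers give 3.1.0. Seurat 3.0 is named without a role. Cells needed 500 UMIs, 300 genes and at most 20% mitochondrial UMIs. Each cell was gated by marker lists that held no sterol gene (lineage by the highest scaled score, keratinocyte state by the highest standardised score), and cells of mixed lineage were removed. Counts were summed per class and scaled to CPM; ratios carry exact conditional binomial intervals, shares Clopper-Pearson intervals (scipy 1.17.1, Python 3.11.15). A count of 0 took the floor of 3 counts. Measured genes had at least 20 UMIs over both libraries, and compared classes at least 100 cells in each. The ratio and its call were run on simulated counts with counting error alone. Such counts cannot show how the calls behave with differences between cells, mice or libraries. The naming rule gives every member in the keratinocyte pool, in other classes the members called and the highest and lowest, and of the other lists the genes called in the pool and the highest and lowest; other names were chosen after their values were seen. Members and lists were chosen with earlier results of these data known. Alternatives included TMM scaling (edgeR 4.0.16), thinning, Scrublet scores and Leiden clusters (scanpy 1.11.5). Some genes of the other lists that the rule would name are not reported here, though the counts include them.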

Additional observations from a re-analysis of the deposited data

Results flagged for a closer look

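The summed synthesis ratio was 1.09 in T and innate lymphoid cells and 0.773 in keratinocytes, so under the marker gates the 2 classes lay on opposite sides of 1. The difference between them was not tested, with 1 library per genotype, and the interval in T and innate lymphoid cells (0.999 to 1.18) held 1. It was 0.919 with Leiden clusters in place of gates and 0.964 as a mean over cells, on the same side as keratinocytes.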

How the results depend on the processing

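No paired analysis was possible because there was 1 library per genotype. No alternative turned the direction of the synthesis sum or of Ch25h in all keratinocytes. The synthesis sum, 0.773, became 0.788 with TMM scaling, 0.789 with median-of-ratios scaling, 0.761 with cells thinned to 2000 UMIs, 0.764 as a mean over cells, 0.789 with keratinocyte states weighted alike and 0.820 with Leiden clusters weighted alike, a setting chosen after seeing the data. The count of synthesis genes called lower, 6, became 3 with states and 2 with clusters weighted alike. The count of SREBP control genes called lower, 1, became 2 with thinning and as a mean over cells. The weighted-alike settings and the mean over cells had no interval, so their counts rest on the 1.5-fold rule alone. The Ch25h ratio became 0.479 in keratinocytes with clusters weighted alike. In basal cells it became 0.376 with thinning, 0.412 with Leiden clusters in place of gates, 0.374 with depth tertiles weighted alike and 0.496 with clusters weighted alike, from 0.394. Of the 29 member ratios in keratinocytes, 24 stayed on the same side of 1 under each alternative run; Tm7sf2, Srebf1, Abca1, Abcg1 and Nr1h2 did not. The cause of these shifts was not tested. Subtracting 5% free RNA left no Ch25h value in fibroblasts or in T and innate lymphoid cells.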
